A study of Mus musculus with 9 samples.

Results

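Brain RNA of mice given hypidone hydrochloride after middle cerebral artery occlusion (MCAO) was compared with brain RNA of control mice. MCAO is a surgical model of ischaemic stroke in which an artery that feeds much of a cerebral hemisphere is blocked. Of the 9 libraries of the series, 6 entered this comparison: 3 labelled control (titles ending in 4, 5 and 6) and 3 labelled as given the drug after the surgery (titles ending in 2, 7 and 8). They were chosen by those labels, and the comparison covered every gene with enough counts, 14756 of the 18138 genes counted. The drug was given at 5 mg/kg for 7 days, per the labels. For the controls the labels name no sham surgery, no vehicle and no time. The sources used here do not give strain, sex, age, brain region or hemisphere. Because the control mice had neither the occlusion nor the drug as far as the labels say, effects of surgery and of the drug cannot be told apart in this contrast. The remaining 3 libraries, from MCAO mice without the drug, are given beside it as levels only, since their levels were not compared in any test. They did enter the gene filter and the main fit, which used all 9 libraries. The spread among the MCAO libraries therefore also enters the standard errors, intervals and p-values of that fit. Whether the samples of a group are different animals is not stated, and p-values therefore reflect only how these samples vary, technical variation included.

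Hypidone, also called YL-0919, was developed as an antidepressant candidate that acts on serotonin signalling: it blocks the serotonin transporter and is a partial agonist of the 5-HT1A receptor. After an arterial occlusion, neurons in the starved territory die, microglia and astrocytes become reactive, and neutrophils and then monocytes can enter from the blood. The comparison with control brain asks how near the transcriptome of drug-treated stroke brain lay to that of brain without a stroke.

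The 6 libraries held between 32075682 (control 4) and 36550282 (control 5) gene counts, and the hypidone libraries between 33815015 and 34917644. Control 5 stood apart from the other 5 libraries. On the first principal component of log2 CPM (CPM being read counts scaled to a shared library size), which held 54.6% of the variance of these 6, control 5 lay at 77.2 and the others between -19.4 and -6.34. Its Pearson correlations of log2 CPM across genes with the other 5 libraries were 0.954 to 0.962, while all other pairs reached 0.983 to 0.99. The biological coefficient of variation, the spread of a typical gene between libraries beyond counting error, was 29.4% in the 3 controls, 11% in controls 4 and 6 alone, and 14.5% in the hypidone group. All pairs differed by more than sampling noise (lowest chi-square per degree of freedom 8.83, control 4 with hypidone 8). Results below are therefore given with all libraries and, where control 5 matters, without it.

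Brain marker genes were abundant in all 6 libraries. The synaptic gene Snap25 was at 2494 to 5637 CPM, the glutamate transporter gene Slc1a2 of astrocytes at 2830 to 3426 CPM, the myelin gene Mbp at 1513 to 4377 CPM, and the microglial receptor gene P2ry12 at 48 to 55.3 CPM. The T cell receptor gene Cd3e had 9 counts over the 9 libraries and was not tested.

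No gene passed the test between hypidone-treated stroke brain and control brain. At an adjusted p of 0.05 (edgeR quasi-likelihood test, Benjamini-Hochberg over 14756 genes) 0 genes were higher (0% of genes tested) and 0 were lower (0%), and the smallest adjusted p was 1. At an unadjusted p under 0.05 there were 131 genes (0.888%), of which 59 were higher and 72 lower with hypidone, and 66.2% of genes had an unadjusted p over 0.5. Other tools called few genes: DESeq2 on the 9 libraries called 1 gene, Ch25h, and DESeq2 on the 6 libraries alone, chosen after seeing the data, called 7 genes, all higher. Limma with voom and limma on FPKM called 0 genes each, with 424 and 42 higher and 194 and 18 lower at an unadjusted p under 0.05.

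The estimates also bound how far most genes differed. The 95% interval of the fold change lay within 2-fold in either direction for 10492 genes, 71.1% of those tested, and the median log2 fold change (hypidone minus control) over all genes was -0.0065. With only the 6 libraries in the fit, 11279 of 14360 genes (78.5%) had an interval within 2-fold, and 0 genes were called, with 305 higher and 64 lower at an unadjusted p under 0.05. The other genes could differ by more than 2-fold without passing.

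**Figure D1:**
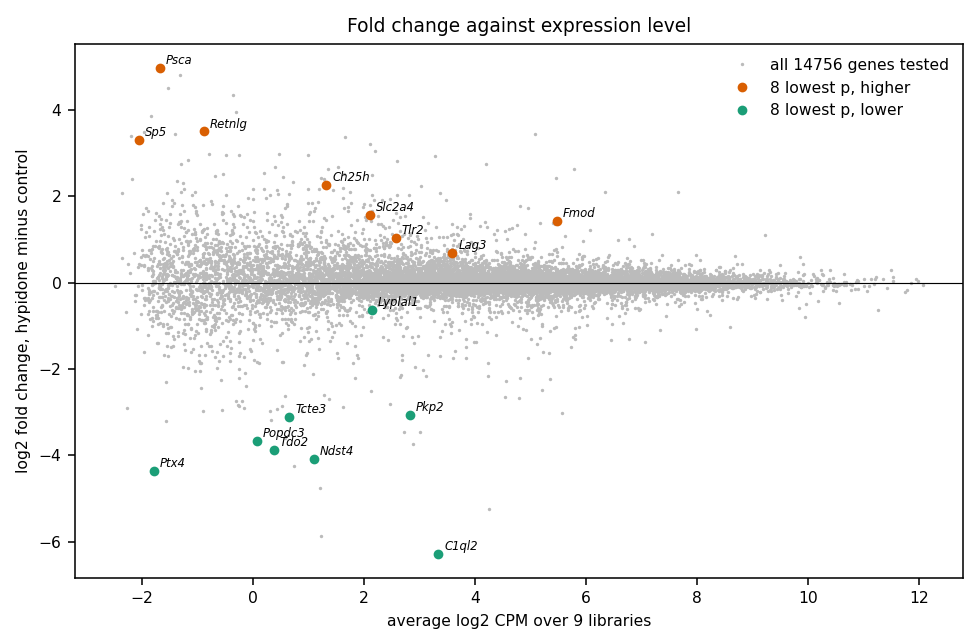
Log2 fold change (hypidone minus control, vertical axis) of each of the 14756 genes tested against its average log2 CPM over 9 libraries (horizontal axis), with the 8 lowest p-values in each direction named. Most genes lie near 0, and the named genes include Ch25h at 2.27 and C1ql2 at -6.27.

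The cholesterol 25-hydroxylase gene Ch25h, whose enzyme makes an oxysterol in activated macrophages and microglia, had the lowest p of all genes. Ch25h (ENSMUSG00000050370.5, chr19:34473778-34475164 on the minus strand of GRCm38, GENCODE M21) stood at 0.383, 0.57 and 0.571 CPM in controls 4, 5 and 6 and at 2.42, 2.42 and 2.55 CPM in hypidone 2, 7 and 8. The groups did not overlap, and every hypidone library was over 4 times every control. The log2 fold change was 2.27 ± 0.38 (SE), with a 95% interval of 1.41 to 3.13, unadjusted p of 0.000204 and edgeR adjusted p of 1. Without control 5 the log2 fold change was 2.36. The MCAO libraries lay at 2.84, 6.36 and 3.82 CPM. DESeq2 on the 9 libraries gave 2.26 with an adjusted p of 0.0018; over all edgeR and limma alternatives the adjusted p ran from 0.293 to 1. The counts rest on 52 reads in the controls and 253 in the hypidone group, and the gene overlaps Gm26902 on the other strand, whose reads cannot be told apart as the strand setting is not given.

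Upstream sequences of 3 genes of inflammation for which every hypidone library lay above every control, namely Ch25h, the Toll-like receptor gene Tlr2 and the interleukin-1 beta gene Il1b, are shown because transcription factors switched on by inflammatory signals act at such sites. Each was taken from the RefSeq promoter table of GRCm38.p6 as the 250 bases before the RefSeq start, written 5′ to 3′ on the minus strand, and bases that GENCODE M21 places in an exon of a protein-coding gene were left out. These were 16 bases for Ch25h (printed chr19:34475165-34475398), 159 for Tlr2 (chr3:83841768-83841858) and 0 for Il1b (chr2:129371140-129371389). Capitals mark matches to 4 motifs searched on both strands in the whole 250 bases: an NF-kB-like motif of 3 G, 5 bases of any kind and 2 C, TGANTCA (AP-1), TGACGTCA (the cyclic AMP response element, added after the Ch25h sequence was seen) and TATAAA.
Ch25h: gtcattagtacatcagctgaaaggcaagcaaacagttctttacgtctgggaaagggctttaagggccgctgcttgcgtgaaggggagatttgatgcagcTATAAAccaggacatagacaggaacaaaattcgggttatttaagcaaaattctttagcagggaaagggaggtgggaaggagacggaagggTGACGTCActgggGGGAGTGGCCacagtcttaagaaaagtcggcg
Tlr2: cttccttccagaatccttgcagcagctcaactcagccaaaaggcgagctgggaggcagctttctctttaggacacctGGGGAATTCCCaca
Il1b: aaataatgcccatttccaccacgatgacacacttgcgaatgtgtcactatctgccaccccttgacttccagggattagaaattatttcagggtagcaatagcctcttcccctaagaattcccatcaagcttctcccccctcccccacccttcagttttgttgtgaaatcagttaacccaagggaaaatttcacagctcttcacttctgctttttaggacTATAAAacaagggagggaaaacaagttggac
In Ch25h, TATAAA lay 151 to 146 bases, TGACGTCA 61 to 54 bases and GGGAGTGGCC 48 to 39 bases before the start. The Tlr2 capitals are overlapping matches, GGGGAATTCC at 173 to 164 and GGGAATTCCC at 172 to 163 bases before the start, the latter on both strands. Il1b held TATAAA 31 to 26 bases before the start. Over 32851 windows of this length in the table, 45.8% held the NF-kB-like motif, 6.75% TGANTCA, 1.55% TGACGTCA and 12.4% TATAAA. A match describes the letters in the window and no binding was measured.

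Other genes with low p-values and higher levels in the hypidone group included immune genes at low levels. Il1b, which encodes a cytokine released by activated myeloid cells, was at 0.319, 0.0543 and 0.12 CPM in the controls and at 0.691, 0.856 and 0.586 CPM in hypidone 2, 7 and 8, with no overlap. On 16 and 73 counts, this was a log2 fold change of 2.11 ± 0.63 (95% interval 0.68 to 3.54). Without control 5 it was 1.68. The MCAO libraries lay at 0.341, 0.547 and 0.357 CPM for Il1b, below every hypidone library. Il1b (chr2:129364570-129371139, minus strand) overlaps Il1bos on the other strand. Tlr2, a receptor for bacterial lipoproteins and for products of damaged tissue (chr3:83836272-83841767, minus strand), was at 0.607, 0.978 and 1.11 CPM in the controls and 2.39, 1.59 and 1.58 CPM in the hypidone libraries. All hypidone libraries lay above all controls, with a log2 fold change of 1.04 ± 0.30 (95% interval 0.36 to 1.72). The MCAO libraries lay far above both groups, at 12.2, 17.4 and 15.2 CPM. Lag3 (chr6:124904361-124911705, minus strand) encodes an inhibitory immune receptor, and which cells held its RNA was not tested. It was at 8.34, 7.85 and 8.02 CPM in the controls and 14.7, 12.7 and 11.5 CPM in the hypidone group. Its log2 fold change of 0.68 ± 0.16 (95% interval 0.31 to 1.06) was the smallest of the 8 genes with the lowest p on this side, and its MCAO levels were 16.9, 13.3 and 14.9 CPM.

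**Figure D2:**
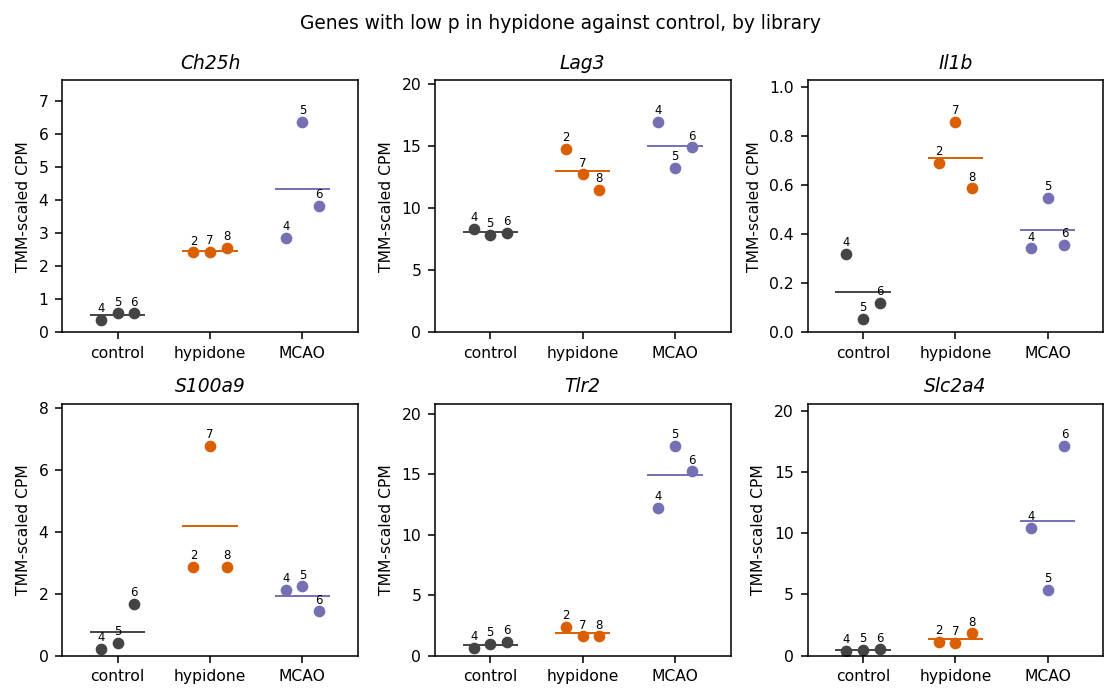
TMM-scaled CPM of 6 genes in each library (points, labelled with the number in the sample title), with the group mean as a line, for control, hypidone after MCAO and MCAO. In each of the 6 genes the 3 hypidone libraries lie above the 3 controls, and for Tlr2 and Slc2a4 the MCAO libraries lie above both.

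The insulin-responsive glucose transporter gene Slc2a4 was at 0.383, 0.434 and 0.511 CPM in the controls, 1.12, 1.03 and 1.82 CPM in the hypidone group and 10.4, 5.34 and 17.1 CPM in MCAO. The log2 fold change of hypidone against control was 1.57 ± 0.46 (95% interval 0.54 to 2.6) and did not pass. Fmod, which encodes the collagen-binding matrix protein fibromodulin, overlapped between the groups: 33.3, 10.8 and 17.2 CPM in the controls and 33.1, 63 and 69.4 CPM in hypidone 2, 7 and 8, a log2 fold change of 1.43 ± 0.42. The transcription factor gene Sp5 had 2 counts in the controls and 23 in the hypidone group, a ratio of 11.3 (95% counting interval 2.8 to 99.3), and the surface antigen gene Psca had 1 and 43 counts, a ratio of 42.4 (7.22 to 1715). These intervals cover counting error only.

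On the side of lower levels, most genes with low p-values were high in control 5 alone. Of the 72 genes lower with hypidone at an unadjusted p under 0.05 (0.488% of those tested), 51 stood over 4-fold higher in control 5 than in any of the other 5 libraries. C1ql2, a gene of dentate granule neurons of the hippocampus, was at 0.256, 76.7 and 0.361 CPM in controls 4, 5 and 6 and at 0.432, 0.325 and 0.234 CPM in hypidone 2, 7 and 8. With control 5 the log2 fold change was -6.27 ± 2.06, and without it 0.10. The heparan sulphate sulphotransferase gene Ndst4 (0.287, 15.6 and 0.601 CPM in the controls, at most 0.443 with hypidone) had -4.08 ± 1.35 and -0.47 without control 5. The desmosome gene Pkp2 was at 31.9 CPM in control 5 and at 1.09 to 1.82 CPM in the other 5 libraries, with -3.07 ± 1.07 and -0.27. Popdc3, a cyclic AMP-binding membrane protein gene, and Tdo2, which encodes a tryptophan-degrading enzyme, followed the same order, at 6.79 and 8.07 CPM in control 5 and at most 0.481 CPM in the other libraries. Their log2 fold changes were -3.66 ± 1.20 and -3.88 ± 1.28, and -0.91 and -0.67 without control 5.

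Lyplal1, a lysophospholipase-like gene, differed little without control 5. It was at 5.85, 6.9 and 5.8 CPM in the controls and 4.17, 3.75 and 4.04 CPM in the hypidone group, and MCAO lay lower still at 2.87, 3.18 and 2.86 CPM. All hypidone libraries were below all controls, with a log2 fold change of -0.63 ± 0.21 (95% interval -1.11 to -0.16) and -0.55 without control 5. Tcte3, a dynein light chain gene of the testis, was at 6.42, 0.299 and 2.61 CPM in the controls and 0.518, 0.177 and 0.381 CPM with hypidone. The estimate was -3.10 ± 0.96, and -3.64 without control 5, whose value lay among those of the hypidone group. Tcte3 overlaps Ermard and Gm3448. The pentraxin gene Ptx4 had 8, 19 and 1 counts in controls 4, 5 and 6 and 0, 1 and 0 in hypidone 2, 7 and 8. Control 5 held 19 of the 28 control counts, and control 6 and hypidone 7 had the same count. The pooled ratio was 0.0352 (95% interval 0.000862 to 0.213, which covers counting error only and not the spread among controls).

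Genes of neutrophils, red cells and monocytes had the largest list medians above 0. No list had a called member, and over all genes 3.86% had hypidone values all above control values and 2.71% all below. A change in the number of cells of a type and a change in RNA per cell cannot be told apart in these bulk samples. Of 10 neutrophil genes 5 had enough counts to be tested, with a median log2 fold change of 2.44 beside -0.0065 over all genes, and 4 of the 5 did not overlap. S100a9, which encodes a calcium-binding protein abundant in neutrophils, was at 0.224, 0.407 and 1.68 CPM in the controls and 2.88, 6.79 and 2.87 CPM with hypidone, a log2 fold change of 2.43 ± 0.71. Retnlg, a resistin-like gene of neutrophils, had 7 counts in the controls and 84 in the hypidone group, at 0.374, 1.33 and 0.762 CPM in hypidone 2, 7 and 8, and a log2 fold change of 3.50 ± 0.97. Summed over the list, neutrophil genes reached 0.319 to 3.19 CPM in the controls, 5.79 to 14.4 CPM in the hypidone group and 3.74 to 8.6 CPM in MCAO, and the groups of this comparison did not overlap. The defining gene Ly6g had 1 count in the controls and 2 in the hypidone group, and Mpo had 2 and 13. Without hypidone 7 the median was 1.94, with 4 of 5 not overlapping, where 5.44% of all genes lay wholly above and 4.6% wholly below. Without control 5 the median was 2.37, over 7 genes, since Camp and Mmp8 then had enough counts to be tested. These medians rest on different members, and a gene can have enough counts through the group in which it is high.

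Monocyte and macrophage genes, 13 of 14 tested, had a median log2 fold change of 1.5. Of these, 6 lay wholly above the controls (3.86% of all genes). Lyz2, the lysozyme gene of macrophages, was at 10.1, 12.9 and 9.71 CPM in the controls and 22.8, 84.1 and 32.7 CPM in the hypidone group, a log2 fold change of 2.09 ± 1.18. It was at 20.3, 1468 and 150 CPM in MCAO, the widest spread of the 3 groups, and this spread also enters the standard error. Without hypidone 7, the highest of its group, the Lyz2 estimate was 1.35 and the list median 0.81. The perivascular macrophage receptor gene Mrc1 was at 3.31 to 3.86 CPM in the controls and at 4.12, 13 and 8.96 CPM with hypidone. The monocyte chemokine gene Ccl2 had 0, 0 and 1 counts in the controls and 4, 14 and 3 in the hypidone group. Summed levels of the list were 27.3 to 51.6 CPM in the controls, 57.9 to 137 CPM with hypidone and 51.3 to 1902 CPM in MCAO.

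Haemoglobin genes were highest in hypidone 7 and 8. Hba-a1 was at 7.95, 9.26 and 14 CPM in the controls and 16.1, 39.7 and 38.9 CPM in hypidone 2, 7 and 8. Hbb-bs was at 32.7, 25.4 and 45.7 CPM and 44.5, 111 and 111 CPM, so hypidone 2 lay within the control range. Their log2 fold changes were 1.60 ± 0.55 and 1.36 ± 0.70 (95% intervals 0.37 to 2.83 and -0.22 to 2.93). Alas2, which starts haem synthesis in red cell precursors, followed with 1.73 ± 0.65. The 6 tested erythrocyte genes of 8 had a median of 1.56, and only Bpgm of these was below 0, at -0.07 ± 0.14. Their summed level was 127 to 145 CPM in the controls and 139.5, 264 and 267 CPM with hypidone. In MCAO it was 76.2 to 89.9 CPM. The sum includes Bpgm and so does not follow the haemoglobin genes alone. In MCAO 4, 5 and 6, Hbb-bs was at 4.35, 16.2 and 1.51 CPM and Hba-a1 at 1.76, 6.46 and 1.73 CPM. The alpha and beta pairs share sequence: 56.5% of the 100-base windows of Hba-a1 transcripts occur letter for letter in Hba-a2, and 66.3% of those of Hbb-bs in Hbb-bt, so reads of a pair may be divided.

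Fibroblast and matrix genes, all 16 tested, had a median log2 fold change of 1.03. Of these, 3 lay wholly above the controls (3.86% of all genes). The collagen I gene Col1a1 was at 7.83, 7.14 and 7.18 CPM in the controls and 13.3, 96.4 and 27.4 CPM in the hypidone group, a log2 fold change of 2.63 ± 1.26 with a 95% interval of -0.22 to 5.48. The matrix glycoprotein gene Thbs1 was at 2.87, 2.06 and 2.31 CPM in the controls, 7.63, 53.7 and 18 CPM with hypidone, and 2.47, 185 and 32.1 CPM in MCAO, a log2 fold change of 3.45 ± 1.28. Hypidone 7 was the highest of its group in both. Without hypidone 7 the list median was 0.53, Col1a1 was 1.46 and Thbs1 was 2.41. Basement membrane collagens differed less, with 0.13 ± 0.52 for Col4a1 and 0.14 ± 0.42 for Col4a2. Summed levels of the list were 489 to 680 CPM in the controls and 594, 1364 and 867 CPM in hypidone 2, 7 and 8.

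**Figure D3:**
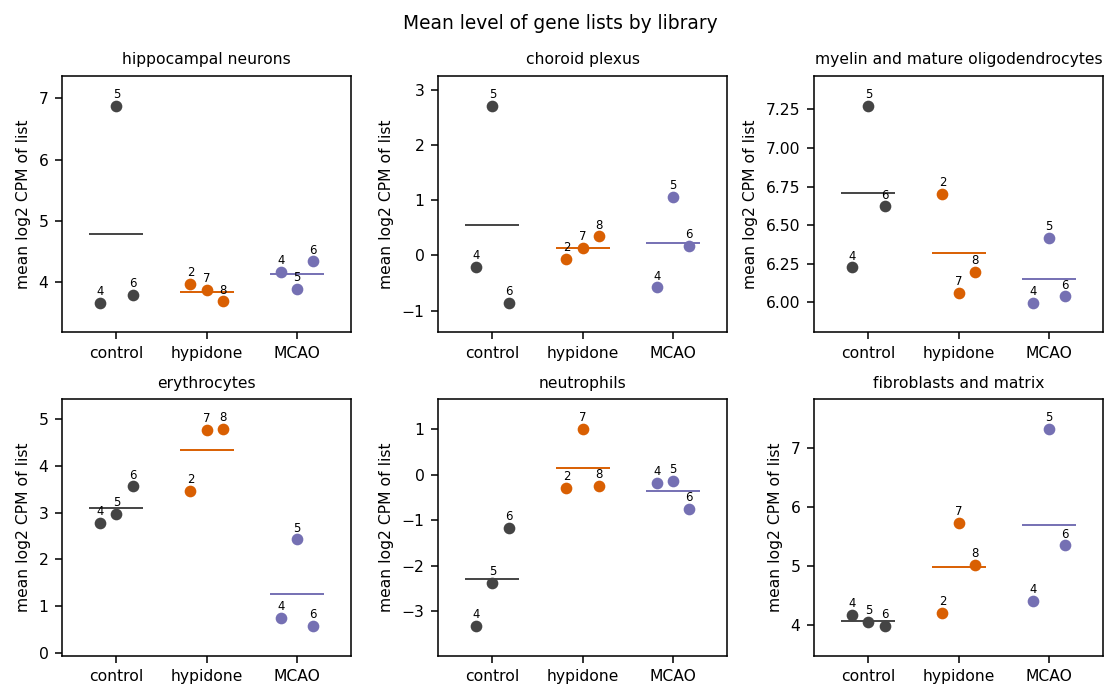
Mean log2 CPM of the tested genes of 6 lists in each library (points labelled with the number in the sample title), with the group mean as a line. Control 5 is the highest library in hippocampal, choroid plexus and myelin genes, and hypidone 7 is the highest of its group in neutrophil and fibroblast genes.

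Microglial genes had smaller list medians. Homeostatic microglia genes, 13 of 13 tested, had a median log2 fold change of 0.18, with P2ry12 at 0.03 ± 0.18 and Cx3cr1, the fractalkine receptor gene, at 0.18 ± 0.47. Of these 13, 4 lay wholly above the controls (3.86% of all genes) and 1 wholly below (2.71% of all genes). Intervals within 2-fold were found for 8 (71.1% of all genes). Activated microglia genes, 20 of 20 tested, had a median of 0.31. Of these, 6 lay wholly above the controls (3.86% of all genes) and 5 had an interval within 2-fold (71.1% of all genes). The lysosomal gene Cd68 was at 12.2, 14.1 and 12.9 CPM in the controls and 21.4, 22.6 and 15.9 CPM in the hypidone group. Its log2 fold change was 0.61 ± 0.63, and it reached 33.3, 323 and 98.8 CPM in MCAO. Standard errors and intervals of these lists also take in the spread among the MCAO libraries. Trem2, a lipid-sensing receptor gene, was at 17.6, 13.2 and 14.3 CPM and at 19.3, 20.3 and 19.3 CPM, a log2 fold change of 0.38 ± 0.43. Cst7, a cystatin gene of reactive microglia, varied widely within the hypidone group, at 3.54, 0.708 and 0.146 CPM, against 0.0601 to 0.19 CPM in the controls. Its log2 fold change of 3.38 ± 1.10 (95% interval 0.90 to 5.87) was the largest of the activated list, and was 3.71 without control 5. The microglial and macrophage marker Aif1 was at 6.61, 5.57 and 4.9 CPM in the controls and 5.61, 7.94 and 5.83 CPM with hypidone, a log2 fold change of 0.18 ± 0.62 (95% interval -1.22 to 1.59).

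Among astrocyte reactivity genes, the estimates for Gfap and Serpina3n and the list median shifted when control 5 was left out. Gfap, the intermediate filament gene that astrocytes raise after injury, was at 204, 660 and 117 CPM in controls 4, 5 and 6 and at 537, 294 and 290 CPM in hypidone 2, 7 and 8. The group ranges overlapped through control 5 alone. The log2 fold change was 0.19 ± 0.71 (95% interval -1.41 to 1.79), and 1.22 without control 5. In MCAO Gfap was at 612, 2827 and 3257 CPM. Vim, another filament gene, was at 39.7, 55.8 and 41 CPM in the controls and 62.2, 87.4 and 65.1 CPM with hypidone, a log2 fold change of 0.65 ± 0.75. The protease inhibitor gene Serpina3n was at 8.34, 61.1 and 15.2 CPM and 30.5, 16.4 and 15.3 CPM, with -0.45 ± 0.90, and 0.82 without control 5. Over the list 15 of 16 genes were tested, with a median of 0.37 and 5 wholly above the controls (3.86% of all genes). The mean log2 CPM of the list was 1.684 to 1.999 in the controls, control 5 included, and 2.407 to 2.816 with hypidone. Without control 5, 16 were tested, with a median of 0.82 and 8 wholly above, where 8.97% of all genes were wholly above and 8.06% wholly below. Resting astrocyte genes, 14 of 14 tested, had a median of 0.04, and all 14 intervals lay within 2-fold.

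Inflammatory signalling genes were measured at low levels. Of 17 cytokine and chemokine genes 12 were tested, with a median log2 fold change of 0.98 (0.51 without control 5 and 0.49 without hypidone 7). Of the 12, 4 lay wholly above the controls (3.86% of all genes). Tnf had 1 count in the controls and 5 in the hypidone group, a ratio of 4.93 (95% counting interval 0.552 to 233), and Il6 had 0 and 2, so neither was tested. Ccl4, a chemokine gene of microglia, had 27, 7 and 1 counts in hypidone 2, 7 and 8 and 4 in all controls. Tgfb1, an anti-inflammatory growth factor gene, was at 6.77, 7.06 and 5.86 CPM in the controls and 8.78, 10.4 and 7.85 CPM in the hypidone group, with 0.46 ± 0.32. Among 19 Toll-like receptor and NF-kB genes, all tested, the median was 0.23. Of these, 4 were wholly above the controls (3.86% of all genes) and 9 had an interval within 2-fold (71.1% of all genes). The NF-kB subunit gene Rela was at 0.23 ± 0.13, and the inhibitor gene Nfkbia, itself an NF-kB target, at -0.09 ± 0.19 (95% interval -0.51 to 0.33).

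Complement genes, 15 of 16 tested, had a median of 0.40, with 3 wholly above the controls (3.86% of all genes). The median was 0.25 without hypidone 7. C1qb, a chain of the starter complex, was at 84.1, 74.6 and 71.6 CPM in the controls and 101, 103 and 86.6 CPM in the hypidone group, a log2 fold change of 0.34 ± 0.53. C4b, a central component, was at 8.08, 26.7 and 6.76 CPM and 28.4, 33.1 and 10.3 CPM, with 0.79 ± 0.67, and 1.69 without control 5. Antigen presentation genes, 11 of 12 tested, had a median of 0.52 and none lay wholly above. Without hypidone 7 the median of this list was 0.30, with 2 wholly below (4.6% of all genes). The class II chaperone gene Cd74 was at 5.81, 5.32 and 4.33 CPM in the controls and 4.95, 23 and 30 CPM with hypidone, so hypidone 2 lay within the control range and hypidone 7 and 8 above it. Interferon response genes, 14 of 15 tested, had a median of 0.11 with all libraries, and none lay wholly above or below the controls. The direction of this list turned with single libraries. The median was -0.17 without control 5, and -0.56 without hypidone 7, where all 14 were fitted lower and 4 lay wholly below (4.6% of all genes).

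**Figure D4:**
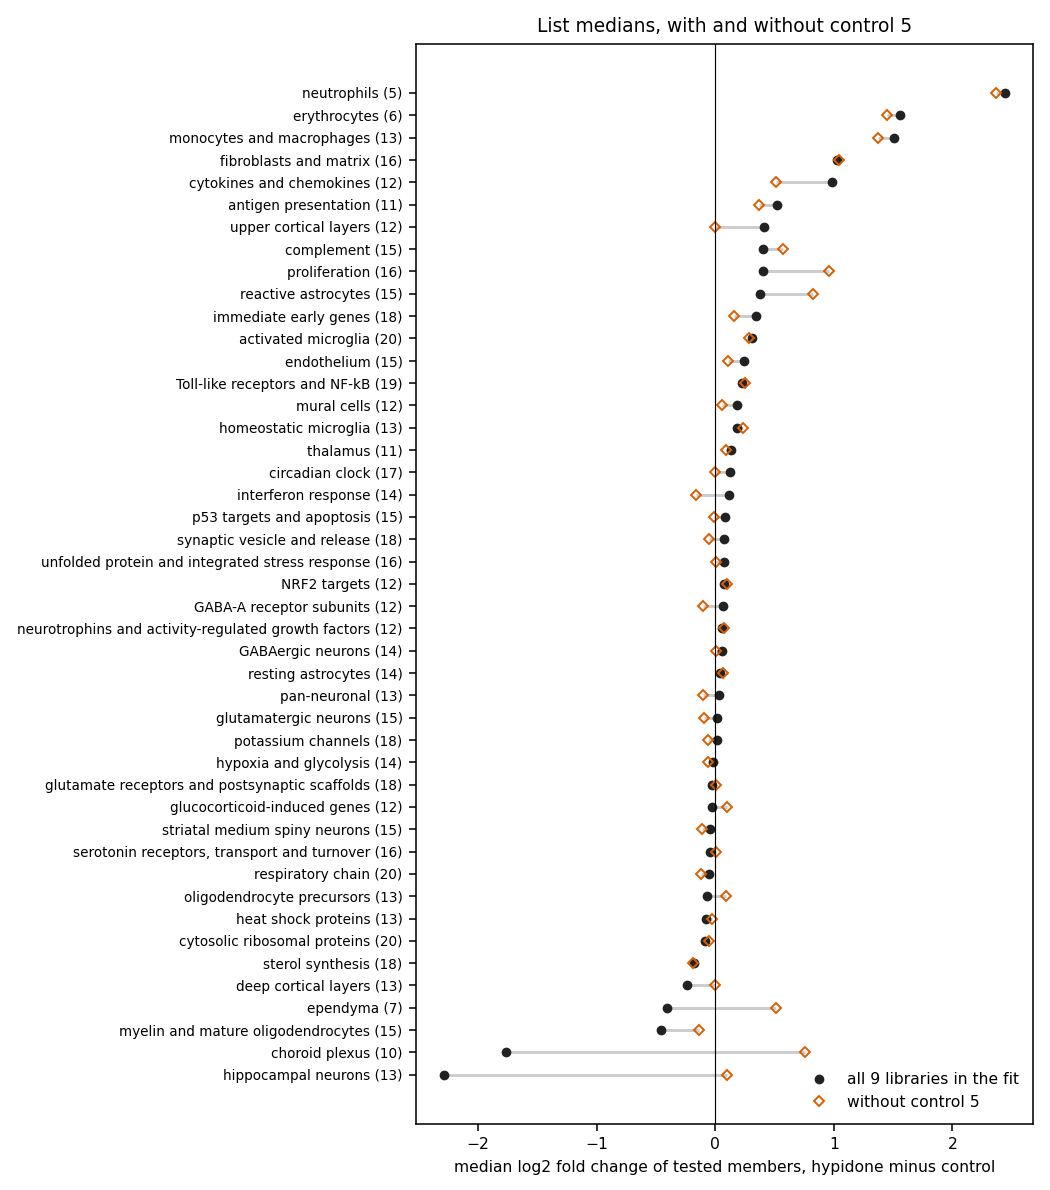
Median log2 fold change (hypidone minus control) of the tested members of each of 45 lists with at least 5 tested members (number of members tested in parentheses), from all 9 libraries (filled) and without control 5 (open). Neutrophil, erythrocyte, monocyte and fibroblast lists lie above 1 both ways, while the hippocampal and choroid plexus lists move from below -1 to above 0.

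Estimates for the tested genes of serotonin signalling ran from -0.28 to 0.20 without control 5, but some had wide intervals. Without control 5 the 95% interval was -2.21 to 1.64 for Htr4 and -1.27 to 1.53 for Htr2c. Htr1a, which encodes the 5-HT1A receptor, was at 12.9, 41.8 and 14.8 CPM in the controls and 16.6, 12.9 and 11.2 CPM in the hypidone group. The estimate was -0.77 ± 0.41 (95% interval -1.69 to 0.14) with control 5 and -0.03 (-0.50 to 0.44) without it. The serotonin receptor gene Htr6 had 0.04 ± 0.27 (95% interval -0.56 to 0.63). The transporter gene Slc6a4 had 2 counts in the controls and 9 in the hypidone group and was not tested. The serotonin neurons that express it have their cell bodies in the brainstem. Of 18 genes of serotonin receptors, transport and turnover 16 were tested, with a median of -0.04 and none wholly above or below. Htr4 and Htr5b had the lowest p of these and were high in control 5 only, at 11.8 and 7.58 CPM against at most 0.403 CPM in the other 5 libraries.

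The activity-regulated genes Arc and Bdnf overlapped between hypidone and control libraries, and their MCAO levels lay below both groups. Arc, an immediate early gene of active neurons, was at 571, 177 and 528 CPM in controls 4, 5 and 6, at 675, 536 and 437 CPM in hypidone 2, 7 and 8, and at 15.4, 29.9 and 74.8 CPM in MCAO. The log2 fold change against control was 0.37 ± 0.57 (95% interval -0.91 to 1.65), and 0.00 without control 5. Bdnf, a neurotrophin gene, was at 32.8, 48.9 and 30.5 CPM, 45.9, 35.2 and 30.6 CPM, and 3.61, 3.36 and 11.1 CPM in the same order of groups. Against control the estimate was -0.01 ± 0.43 (95% interval -0.97 to 0.96). Immediate early genes, 18 of 18 tested, had a median of 0.34 with none wholly above or below, and 1 interval lay within 2-fold.

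Genes of neuronal identity, energy and protein synthesis, sterol synthesis, and hormone and p53 responses are described here with the number of intervals within 2-fold. Over all genes 71.1% had such an interval. All 13 pan-neuronal, all 20 respiratory chain and all 20 cytosolic ribosomal protein genes had an interval within 2-fold, with medians of 0.03, -0.05 and -0.09. Without control 5 these medians were -0.11, -0.12 and -0.06, and all 13 pan-neuronal genes were fitted lower, against 6 with all libraries. Of the 20 respiratory chain genes, 20 were fitted lower with all libraries, 20 without control 5 and 15 without hypidone 7. For the 20 ribosomal protein genes these counts were 19, 18 and 20. Over all genes, 7657 of 14990 were fitted lower without control 5. All 18 sterol synthesis genes also had an interval within 2-fold, with a median of -0.18. Fitted lower were 17 of them with all libraries, 18 without control 5 and 13 without hypidone 7. Of the 18 genes 1, Lss, lay wholly below the controls (2.71% of all genes). Idi1, an isoprenoid isomerase gene of this pathway, was at 20.6, 20.2 and 18.6 CPM in the controls and 13.8, 16.2 and 20.6 CPM in the hypidone group, and at 6.34, 5.16 and 6.78 CPM in MCAO, with -0.23 ± 0.18 (95% interval -0.65 to 0.18) against control. Glucocorticoid-induced genes, 12 of 12 tested, had a median of -0.03 and 7 intervals within 2-fold. Sgk1, a kinase gene of this list, was at 94.9, 128 and 94 CPM in the controls and 121, 82.4 and 107 CPM with hypidone, with -0.03 ± 0.18, and at 259, 317 and 306 CPM in MCAO. The triglyceride lipase gene Pnpla2 was at 24.9, 23.7 and 26.7 CPM in the controls, 23.3, 27.1 and 27.3 CPM in the hypidone group and 125, 112 and 140 CPM in MCAO. Against control the estimate was 0.05 ± 0.12, with a 95% interval of -0.23 to 0.32. The p53 targets, 15 of 15 tested, had a median of 0.08 and of -0.0087 without control 5. With all libraries 10 intervals lay within 2-fold. The cell cycle inhibitor gene Cdkn1a was at 18, 7.85 and 21.9 CPM in the controls and 22.8, 24.6 and 22.7 CPM with hypidone. Its estimate was 0.55 ± 0.34, and 0.22 without control 5. In MCAO it was at 170, 96.8 and 160 CPM.

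**Figure D5:**
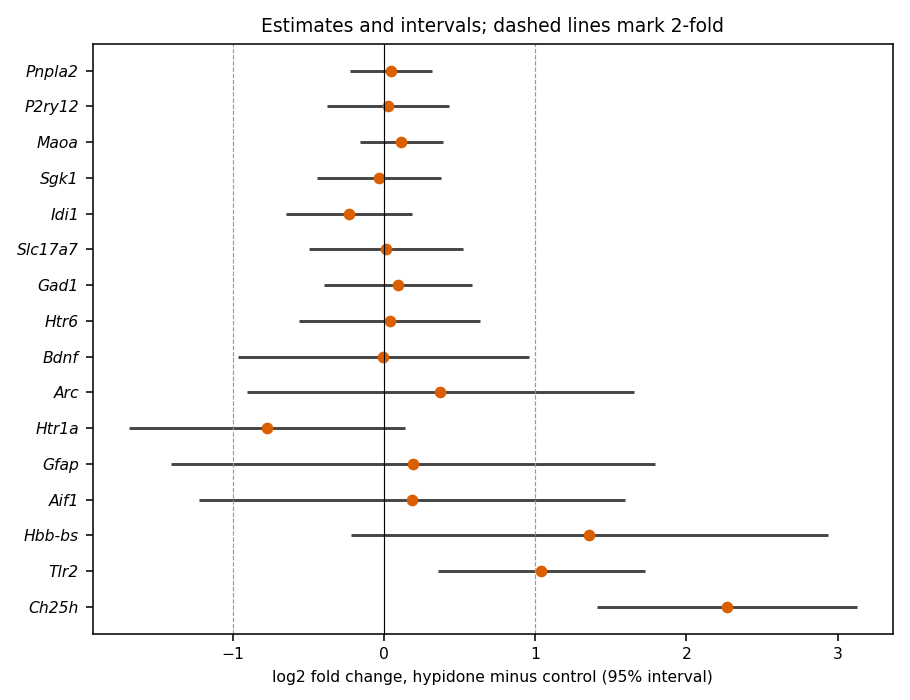
Log2 fold change (hypidone minus control, point) with its 95% interval (line) of 16 genes from the fit of 9 libraries, with dashed lines at 2-fold. Pnpla2, P2ry12, Sgk1 and Idi1 have intervals within 2-fold, those of Gfap, Aif1 and Hbb-bs reach past 2-fold, and the interval of Ch25h lies wholly above 2-fold.

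List medians for genes of particular brain structures shifted when control 5 was left out. Hippocampal neuron genes, 13 of 15 tested, had a median log2 fold change of -2.28. Of these, 7 were lower at an edgeR unadjusted p under 0.05 (0.488% of all genes). Without control 5 the median was 0.10, and 0 of the 13 were under that p. Fibcd1, a gene of CA1 neurons, was at 9.84, 152 and 9.95 CPM in the controls and 7.72, 8.82 and 10.8 CPM in the hypidone group. Choroid plexus genes, 10 of 13 tested, had a median of -1.76 and 0.76 without control 5. Ttr, the transthyretin gene of the choroid plexus, was at 1.57, 153 and 0.331 CPM in the controls and 1.15, 1.5 and 1.44 CPM with hypidone, with log2 fold changes of -5.24 ± 1.92 and 0.53 without control 5. Myelin genes, 15 of 15 tested, were all fitted lower, with a median of -0.46, and -0.14 without control 5. Mbp was at 1945, 4377 and 2478 CPM in the controls and 2300, 1513 and 1907 CPM in the hypidone group, a log2 fold change of -0.62 ± 0.35. Upper cortical layer genes had a median of 0.41 and -0.0041 without control 5, in which the layer marker Cux2 was at 20.8 CPM against 127 to 185 CPM in the other 5 libraries.

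Of 45 lists with at least 5 tested members, 29 had a median log2 fold change within 0.25 of 0 with all libraries, 32 without control 5, and 28 both ways.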

How the data were processed

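RNA of mouse brain was sequenced in 9 libraries of 3 groups, and groups and numbers come from the sample labels. Per the labels' protocols, RNA came from a TRIzol extraction and libraries from a VAHTS Universal V6 kit. Raw counts by gene symbol and FPKM values were deposited. The submitters' processing notes name mm10 and DESeq2, with no role or version. Aligner, counter and strand setting: not given in the sources used here. How reads of overlapping or near-identical genes were assigned is therefore unknown. All 9 count columns matched a sample by title, and the authors' own table of comparisons was not used.

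Genes were kept with edgeR's filterByExpr and libraries scaled with TMM. All 9 libraries entered 1 quasi-likelihood fit (edgeR 4.0.16, R 4.3.3) with 6 residual degrees of freedom, and the contrast hypidone minus control was tested two-sided with Benjamini-Hochberg adjustment at 0.05. Standard errors equal the estimate over the square root of F, and 95% intervals use the moderated degrees of freedom. The fit was tested on simulated data. CPM are TMM-scaled. The libraries differ little in depth (32075682 to 37325027 counts), and intervals for counts of 1 to 3 cover counting error only.

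The named genes were the 8 lowest p in each direction with a regular symbol, and Htr1a, Htr6, Slc6a4, Il1b, Tnf, Il6, Gfap, Aif1, Arc, Bdnf, Hbb-bs and Ttr. Parts of the rule for called genes named none, and some genes that the rule covers are left out here. Other genes are members of 48 lists (699 entries) or were named after their values were seen. The members and lists were chosen with earlier results of these data known. Symbols were matched to GENCODE M21: 14447 of 14756 matched 1 gene.

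Alternatives were DESeq2 size factors, library totals, no filter, CPM of at least 1 in 3 libraries, robust fitting, DESeq2 1.42.0, limma 3.58.1 with voom and quality weights, limma on FPKM (log2, pseudocount 1), only the 6 libraries, and leaving out each library. DESeq2 on the 6 libraries, with and without control 5, was added after seeing the data.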

Additional observations from a re-analysis of the deposited data

How the results depend on the processing

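No paired analysis was possible because hypidone titles (2, 7 and 8) and control titles (4, 5 and 6) share no number. Under 24 planned and 2 added alternatives, the added ones chosen after seeing the data, few genes passed. DESeq2 called 1 gene higher, by over 2-fold (Ch25h, adjusted p of 0.0018). With all 9 libraries and 1 left out in turn, 0 to 0 genes were called in either direction; with the 6 libraries and 1 left out, 0 to 1 higher (Elk1, log2 fold change 1.17, edgeR adjusted p of 0.0163, without control 5) and 0 to 0 lower. DESeq2 on the 6 libraries called 7 higher, 6 of them over 2-fold (Ch25h, Elk1, Hba-a1, Lyz2, Tbx15, Thbs1 and Vwf, with Elk1 under 2-fold), and 0 lower. Without control 5 it called 4 higher, 3 over 2-fold, and 1 lower (Tcte3 at -3.65, adjusted p of 1.05e-06), the 4 being Ch25h, Elk1, Vim and Vwf. Genes with an interval within 2-fold numbered 9429 to 11120 with 1 of 9 libraries left out and 10448 to 12140 with 1 of 6 left out. Genes at an unadjusted p under 0.05 numbered 30 to 216 higher and 11 to 292 lower with 1 of 9 left out, 105 to 477 and 37 to 242 with 1 of 6 left out. Without control 5 these were 56 and 11, and without hypidone 7 they were 30 and 21. Some named genes changed sign. C1ql2 ran from -6.85 to 0.0974 with 1 of 9 libraries left out (-6.86 to 0.105 in the 6, DESeq2 there 0.104), with its value above 0 without control 5. Ttr ran from -5.82 to 0.527 (-5.84 to 0.541, DESeq2 0.534), likewise, and was 0.632 with voom. Gfap ran from -0.208 to 1.22 (-0.219 to 1.23), below 0 at -0.0547 without control 4 (-0.0657 in the 6), at -0.208 without control 6 and at -0.171 without hypidone 2 (-0.16). Htr6 ran from -0.158 without control 4 to 0.204 (-0.161 to 0.211), with -0.000997 without hypidone 8 in the 6. Bdnf ran from -0.189 to 0.235 (-0.18 to 0.244, DESeq2 0.24), above 0 at 0.0336 without hypidone 7 (0.0347), at 0.118 without hypidone 8 (0.115), and was 0.000319 with library totals, 0.143 with voom and 0.012 on FPKM. Control 5 sets the C1ql2 and Ttr signs, since they turn when it is left out. For the other changes the cause was not tested.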

Other observations

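Further genes were named after their values were seen. The transcription factor gene Elk1 was at 32.7, 48.3 and 35.1 CPM in controls 4, 5 and 6 and at 77.2, 78.7 and 71.4 CPM in hypidone 2, 7 and 8. All hypidone libraries lay above all controls, with a log2 fold change of 0.97 ± 0.46 (95% interval -0.07 to 2.01). MCAO libraries varied more, at 40.8, 134 and 32.6 CPM. Elk1 overlaps Uxt on the same strand, so reads of this pair may be divided. The von Willebrand factor gene Vwf of endothelium was at 15.6, 16.6 and 19.9 CPM in the controls and 27.2, 47.7 and 35.9 CPM with hypidone, a log2 fold change of 1.09 ± 0.59, while the tight junction gene Cldn5 of the same cells was at 15.6, 13 and 25.3 CPM and 20.8, 21.8 and 18.7 CPM, with 0.19 ± 0.32. The 15 tested endothelial genes had a median of 0.24, with 3 wholly above the controls (3.86% of all genes).

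The transcription factor gene Tbx15, found in mesenchymal cells, was at 0.703, 0.489 and 0.811 CPM in the controls and 1.58, 6.79 and 2.99 CPM in the hypidone group, a log2 fold change of 2.50 ± 0.88. The collagen VI gene Col6a2 was at 12.6, 7.01 and 13.3 CPM and 15.5, 68 and 25.2 CPM, with 1.72 ± 0.64. In both genes hypidone 7 was the highest of the 6 libraries and hypidone 2 the lowest of its group. Without hypidone 7, Tbx15 was 1.77 (95% interval -0.25 to 3.80) and Col6a2 0.89 (95% interval -0.38 to 2.17), and both intervals included 0. Proliferation genes, 16 of 16 tested, had a median of 0.40, and none lay wholly above the controls. Without control 5 the median was 0.96 and 7 of 16 lay wholly above (8.97% of all genes), and without hypidone 7 it was 0.26 with none wholly above. The cell cycle marker Mki67 was at 0.16, 1.93 and 0.511 CPM in the controls and 2.27, 1.98 and 0.41 CPM with hypidone, with 0.83 ± 1.45 and 2.19 without control 5.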
